A study of Mus musculus with 9 samples.

Results

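Genes that lay on the same side of the controls in both lysosomal storage mutants were taken from RNA sequencing of mouse microglia, the resident macrophages of the brain. Counts were turned into log2 CPM (counts per 1000000 counts of a library) in 8 libraries, and a gene was a member when all 6 mutant libraries lay above, or all 6 below, both controls and when each mutant group mean differed from the control mean by at least 0.5 log2 CPM. Of 23300 autosomal genes among 24421 in the table, 591 met this rule, 81 of them higher and 510 lower in both mutants. Members were thus selected on these values, so every difference from the controls below is a description without a test. Microglia had been sorted from C57BL6 brains as live CX3CR1+ CD45+ CD11b+ cells. Gla y/- mice, a model of Fabry disease (FD), and Mcoln1-/- mice, a model of mucolipidosis type IV (MLIV), gave 3 libraries each. The control group (WT, 3 libraries) was wild type, called littermates for MLIV and age-matched for FD in the paper. No group had been treated. The age is 4 months in the series title and 2 months in the study's methods, which also state 4 mice per condition. The Gla line was kept homozygous while the Mcoln1 line was bred from heterozygotes, both are germline mutations, and which animals gave which library is not stated, so errors between libraries may be technical in part.

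Lysosomes break down lipids, glycans and proteins, and mutations in their enzymes or channels leave undigested material in the cell. Gla encodes alpha-galactosidase A, which removes galactose from globotriaosylceramide, and Mcoln1 encodes TRPML1, a cation channel of the lysosomal membrane. Microglia clear debris and synapses through their lysosomes, and in storage disorders of the brain they take on states marked by chemokines, lipid-handling genes and interferon-stimulated genes. Genes with the same direction in a storage disease with brain degeneration and in one largely without it are of interest because the first defects differ, an enzyme in one and an ion channel in the other.

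The libraries held 22772260 to 37801159 counts. WT 1 had a count for 22932 genes and FD 3 for 12032, the extremes of the series. Mcoln1 had 1082 counts in WT 1 and 1517 in WT 2, 892 to 1442 in FD and 0, 0 and 18 in MLIV. The library labelled WT 3 had 2, which goes against its label, and it was left out of the choice for a count under 50. Gla was listed at 4.54 to 4.90 CPM in FD, beside 4.57 and 8.28 CPM in WT 1 and WT 2, so its count does not check the FD label. Xist was high in all 3 FD libraries, MLIV 1 and MLIV 2 and low in the WT libraries and MLIV 3, and the Y-linked Ddx3y had 0 to 2 counts in FD although a Gla y/- animal is male. MLIV 2 had both, with 849 Ddx3y counts. Sex of the animals and genotype therefore cannot be told apart for FD. The 8 microglia markers summed to 20739 and 24313 CPM in WT 1 and WT 2, 19416 to 22471 CPM over the FD libraries and 20593 to 24789 CPM over MLIV, and none of them was a member. Marker sums of other cells were lower, and several differed between libraries. The monocyte sum was 59.2 and 92.5 CPM in WT, 42.9 to 63.4 CPM in FD and 116 to 138 CPM in MLIV. WT 1 held more astrocyte (83.0 against 21.1 CPM), choroid plexus (215 against 85.1 CPM) and T and NK cell markers (16.2 against 4.30 CPM) than WT 2, and the mutants ranged over 19.9 to 76.3, 52.1 to 154 and 4.47 to 14.95 CPM. The part of these markers in the choice of members was not tested. Of the 10 brain border macrophage markers, Mrc1, Pf4 and Cd163 were low in WT 2 (29.6, 1.36 and 7.95 CPM) and FD 2 (34.9, 1.66 and 4.20 CPM). The other 6 libraries had 118 to 142, 9.50 to 19.6 and 16.2 to 33.6 CPM. Stab1 did not follow, with 564 CPM in WT 2 and 645 CPM in FD 2 beside 522 CPM in WT 1. Siglec1 and Ms4a7 were also low in FD 3 (7.14 and 1.54 CPM). All 10 markers summed to 819 and 632 CPM in WT 1 and WT 2, 709 to 921 CPM in FD and 623 to 651 CPM in MLIV. Stab1 made up most of this sum in each of these libraries. The neutrophil marker S100a8 lay at 26.9 to 61.8 CPM in MLIV, 5.83 and 13.6 CPM in WT 1 and WT 2 and 0 to 1.33 CPM in FD. The 10 neutrophil markers summed to 634 and 744 CPM in WT, 632 to 723 CPM in FD and 723 to 951 CPM in MLIV. Most of that sum was Csf3r, which did not follow S100a8 (606 and 685 CPM in WT, 631 to 717 CPM in FD, 553 to 659 CPM in MLIV). No marker of border macrophages, monocytes or neutrophils was a member. In bulk RNA, a different number of cells of one type and a different amount of RNA per cell cannot be told apart.

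The 81 higher members were 0.348% and the 510 lower members 2.19% of autosomal genes, 2.54% together. Without the size limit, 1.91% of autosomal genes had all mutants above and 2.76% all mutants below both controls. The directions differed in abundance. All 81 higher members passed the filter on low counts, 79 had at least 10 counts in every library, and their median mean level was 24.8 CPM. Of the 510 lower members 330 passed, 84 had at least 10 counts everywhere, and their median was 0.375 CPM. The median over all autosomal genes was 1.38 CPM. Among the lower members 414 had 0 counts in some mutant library, 406 of them in FD 3, and 406 were higher in WT 1 than in WT 2. Both facts move with the number of genes detected in those libraries, and their part in the choice was not tested. The count of members changed with the libraries used, and the rule is easier to meet with 1 library fewer. Of the 591 members, 505 (without FD 3) to 584 (without FD 1 or FD 2) still met it after removal of 1 library. With only WT 2 as control 272 genes were higher and 745 lower, and with only WT 1 the counts were 292 and 8603. Without FD 1, FD 2 or FD 3 the higher genes numbered 126, 150 and 132, and the lower ones 681, 906 and 522. With library totals in place of TMM factors 38 genes were higher and 660 lower.

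**Figure D1:**
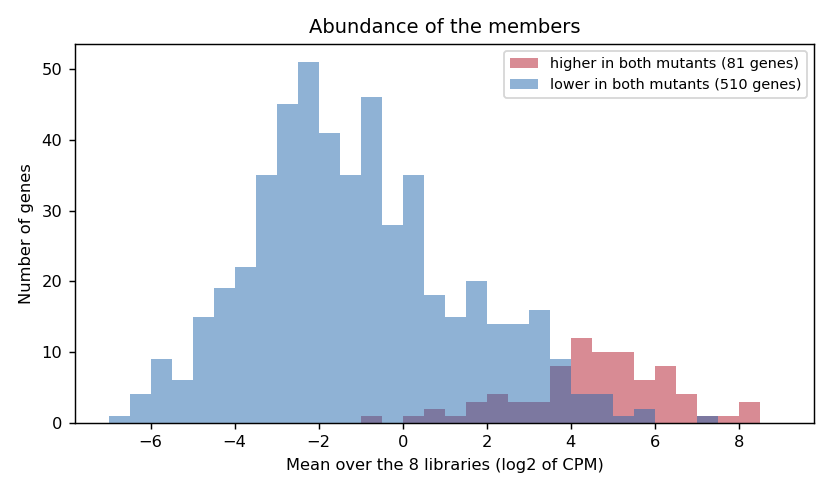
Number of members (y axis) by their mean level over the 8 libraries (x axis, log2 of CPM), for the 81 genes higher and the 510 genes lower in both mutants. The higher members center near 24.8 CPM, while most lower members lie under 1 CPM.

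Chemokines and cytokines stood among the higher members. Ccl12, a chemokine that attracts monocytes, was at 29.2 and 27.0 CPM in WT 1 and WT 2, at 92.4, 48.1 and 40.6 CPM in FD 1 to 3 and at 98.0, 112 and 91.6 CPM in MLIV 1 to 3. Ccl3, which attracts myeloid cells and lymphocytes, was at 23.7 and 26.0 CPM in WT, 37.4, 50.3 and 36.7 CPM in FD and 61.8, 106 and 76.2 CPM in MLIV. For Ccl3 every MLIV library lay above every FD library, and for Ccl12 FD 1 reached the MLIV range. Ccl6, a chemokine made by macrophages, had the opposite order, with 75.7 and 54.4 CPM in WT, 146, 136 and 153 CPM in FD and 114, 96.1 and 115 CPM in MLIV. Ccl6 and Ccl3 lie 54.8 kb apart on chromosome 11. Tnf, a main inflammatory cytokine, was at 6.83 and 8.99 CPM in WT, 14.04, 13.5 and 11.9 CPM in FD and 15.8, 16.3 and 17.1 CPM in MLIV. The 6 Tnf values of the mutants lay close together, with MLIV above FD throughout. Tnfsf8, the ligand of the receptor CD30, was at 3.57 and 3.98 CPM in WT, 11.6, 6.72 and 26.9 CPM in FD and 5.93, 10.9 and 11.8 CPM in MLIV, so its FD mean rested largely on FD 3.

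Members of the PYHIN family, whose proteins bind DNA and take part in innate immune sensing, lay in the same region of chromosome 1. Ifi204 (173747294 to 173766919, mm10) had 17.1 CPM in WT 1 and 3.68 CPM in WT 2, 54.1, 23.2 and 30.4 CPM in FD and 76.5, 93.7 and 45.6 CPM in MLIV. Pyhin1 (173630859 to 173647928), 99.4 kb away, had 14.01 and 7.25 CPM in WT, 25.3, 23.3 and 19.8 CPM in FD and 51.1, 56.2 and 49.5 CPM in MLIV. In both genes WT 2 was the lowest library. The lowest mutant was FD 2 for Ifi204 and FD 3 for Pyhin1. WT 2 and FD 2 are also the libraries low in Mrc1, Pf4 and Cd163, whose part in these values was not tested. By the sum of all 10 border macrophage markers WT 2 lay within the MLIV range and FD 2 above it. Most of that sum was Stab1, at 564 CPM in WT 2 and 645 CPM in FD 2, which did not follow Mrc1, Pf4 and Cd163. Genes of this family are alike in sequence, so the split of reads among them is uncertain. Of interferon-stimulated genes, Isg20, an RNA exonuclease, was at 2.96 and 3.12 CPM in WT, 6.17, 4.44 and 8.14 CPM in FD and 10.1, 9.03 and 17.4 CPM in MLIV. Herc6, which attaches the modifier ISG15 to proteins in the mouse, was at 53.5 and 58.2 CPM in WT, 89.0, 70.8 and 95 CPM in FD and 79.5, 102 and 126 CPM in MLIV. FD and MLIV overlapped for Herc6 and not for Isg20. The interferon-inducible GTPase gene Gm4951 (Ifgga2) ranged over 4.68 to 6.60 CPM in WT, 10.4 to 22.5 CPM in FD and 17.4 to 36.7 CPM in MLIV.

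A further gene of this kind, Gm12250 (Irgb10, an immunity-related GTPase), was named after its values were seen. It had 8.14 and 8.10 CPM in WT, 27.2, 16.0 and 8.21 CPM in FD and 20.8, 22.6 and 22.1 CPM in MLIV. FD 3 all but touched the controls. Its promoter is shown because it was the only one among 60 higher members with a RefSeq promoter that held the interferon response motif (GAAA, any 2 bases and GAAA again) on either strand, and it held that motif 2 times. The sequence covers 250 bases before to 50 after the start (GRCm38.p6, chr11:58183593-58183892, plus strand), 5′ to 3′, with the motif, here read on the opposite strand, in capitals.
Gm12250: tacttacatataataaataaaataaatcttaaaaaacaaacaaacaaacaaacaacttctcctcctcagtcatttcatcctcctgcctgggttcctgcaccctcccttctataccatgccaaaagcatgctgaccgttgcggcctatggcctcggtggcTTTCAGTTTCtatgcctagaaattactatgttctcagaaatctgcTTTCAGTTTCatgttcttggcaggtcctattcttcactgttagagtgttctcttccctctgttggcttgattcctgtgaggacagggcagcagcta
Among 16456 autosomal genes with a promoter entry, 3.41% held the motif, beside 1.67% of higher members and 3.10% of the 355 lower members with one. The E-box of lysosomal genes, GTCACGTG, was in 3.33% of higher, 1.69% of lower and 2.91% of all promoters. The NF-kB motif (GGGA, any base and TTTCC) was in none of the members' promoters and in 0.419% of all. For the interferon-gamma motif TTCNNNGAA the shares were 5%, 9.58% and 8.21%, for the AP-1 motif TGANTCA 8.33%, 8.45% and 7.47%, and for TGACGTCA, the cAMP response element, 3.33%, 1.69% and 2.47%. Matches in such windows describe letters and not bound sites.

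Several others encode surface receptors, adhesion molecules or channels. Treml2, a receptor of myeloid cells related to TREM2, was at 12.8 and 7.25 CPM in WT, 33.6, 24.6 and 31.5 CPM in FD and 62.4, 65.6 and 51.4 CPM in MLIV. Ly9, a receptor of the SLAM family, was at 39.9 and 40.0 CPM in WT, 76.6, 66.0 and 79.1 CPM in FD and 146, 150 and 149 CPM in MLIV. The values of the 3 groups were separate for both genes, with FD between WT and MLIV. Nrp1, a co-receptor for semaphorins and VEGF, had the reverse order, with 61.5 and 36.9 CPM in WT, 354, 262 and 305 CPM in FD and 125, 100.5 and 75.2 CPM in MLIV. Its exons hold the microRNA gene Mir1903 on the same strand. Cadm1, an adhesion molecule of the immunoglobulin family, was at 106 and 122 CPM in WT, 169, 180 and 205 CPM in FD and 244, 226 and 206 CPM in MLIV, the last 2 groups nearly touching. The cation channel gene Trpv4 was at 7.83 and 4.24 CPM in WT and between 9.43 and 15.3 CPM in all 6 mutant libraries, with FD and MLIV overlapping.

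Several of the named higher members encode enzymes. Gatm, which carries out the first step of creatine synthesis, was at 71.1 and 84.1 CPM in WT, 596, 617 and 473 CPM in FD and 113, 116 and 112 CPM in MLIV. FD lay far above both other groups, and the MLIV values, though tight, were near the controls. Pde2a, a phosphodiesterase of cAMP and cGMP, was at 9.44 and 6.27 CPM in WT, 37.3, 46.5 and 46.4 CPM in FD and 20.9, 25.4 and 13.2 CPM in MLIV. Lpl, lipoprotein lipase, was at 20.6 and 20.7 CPM in WT, 47.5, 28.0 and 42.6 CPM in FD and 61.5, 74.4 and 60.9 CPM in MLIV. Lpl had its highest values in MLIV and Pde2a in FD, each without overlap of the mutants. Galc, the galactosylceramidase lacking in Krabbe disease, was at 42.5 and 49.96 CPM in WT, 76.6, 77.1 and 65.0 CPM in FD and 72.2, 68.0 and 59.7 CPM in MLIV, and the mutants overlapped. Chst1, a sulfotransferase of keratan sulfate, was at 15.3 and 13.6 CPM in WT, 28.2 to 44.9 CPM in FD and 22.6 to 36.8 CPM in MLIV.

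The survival gene Bcl2a1d belongs to the BCL2 family and has close copies on chromosome 9, of which Bcl2a1a, 225 kb away, was also a member. Bcl2a1d was at 3.84 and 3.59 CPM in WT, 29.7, 33.7 and 20.5 CPM in FD and 6.62, 7.52 and 9.50 CPM in MLIV. Bcl2a1a was at 9.14 and 12.4 CPM in WT, 15.8, 19.7 and 13.5 CPM in FD and 15.7, 18 and 14.4 CPM in MLIV. Only Bcl2a1d had FD far above MLIV. Since the copies share sequence, how reads were split between them is uncertain, and both values should be read with that limit. Their promoters (GRCm38.p6, chr9:88731801-88732100, minus strand, and chr9:88956670-88956969, plus strand) are shown because they make the likeness visible: 18 edits separate 300 bases, an identity of 94.0%. Capitals mark GAGGAAGT, a motif of the myeloid factor PU.1.
Bcl2a1d: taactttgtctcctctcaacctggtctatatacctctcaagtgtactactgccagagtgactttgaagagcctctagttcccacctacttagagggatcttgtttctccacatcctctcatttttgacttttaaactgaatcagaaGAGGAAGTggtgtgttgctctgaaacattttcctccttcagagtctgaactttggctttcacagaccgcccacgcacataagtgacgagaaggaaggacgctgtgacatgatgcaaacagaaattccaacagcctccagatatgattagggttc
Bcl2a1a: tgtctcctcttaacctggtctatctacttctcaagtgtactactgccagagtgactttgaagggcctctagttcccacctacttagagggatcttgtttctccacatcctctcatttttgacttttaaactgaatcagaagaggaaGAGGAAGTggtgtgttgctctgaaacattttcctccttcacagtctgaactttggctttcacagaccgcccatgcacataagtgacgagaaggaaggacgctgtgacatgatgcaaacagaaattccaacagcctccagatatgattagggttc
The motif was in 8.33% of higher members' promoters, 5 genes including this pair, in 1.97% of lower members' and in 3.17% of all.

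The remaining named higher members have other roles. Tns1, a focal adhesion protein, was at 49.3 and 37.8 CPM in WT, 225, 235 and 152 CPM in FD and 62.5, 114 and 141 CPM in MLIV, the last group reaching from near the controls to near FD. Lrguk, a guanylate kinase domain protein, had 4.64 and 2.12 CPM in WT, 11.3, 8.84 and 24.8 CPM in FD and 21.7, 21.1 and 19.5 CPM in MLIV. Rai14, an actin-binding protein whose exons overlap Gm10389 on the opposite strand, had 9.83 and 4.51 CPM in WT, 14.9 to 20.7 CPM in FD and 19.4 to 24.8 CPM in MLIV. Lrguk and Rai14 overlapped between the mutants, and in both WT 2 was the lowest library. Ccpg1, a receptor for the autophagy of endoplasmic reticulum, was at 192 and 221 CPM in WT, 398, 441 and 541 CPM in FD and 330, 281 and 288 CPM in MLIV, with exons shared with Pigb on the opposite strand, which the counting did not separate. The histone gene Hist3h2a was at 15.01 and 13.2 CPM in WT, 30.04 to 41.7 CPM in FD and 20.5 to 22.4 CPM in MLIV, and the B cell receptor gene Cd79b at 11.5 and 12.9 CPM, 14.7 to 20.4 CPM and 15.5 to 21.9 CPM. Over the 81 higher members the median difference from WT was 0.89 log2 CPM in FD and 0.81 in MLIV, with both at 1 or more in 18 genes and FD ahead in 43. FD 3 was the mutant library farthest from the controls in 37 of the 81, and FD 2 the nearest in 27.

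**Figure D2:**
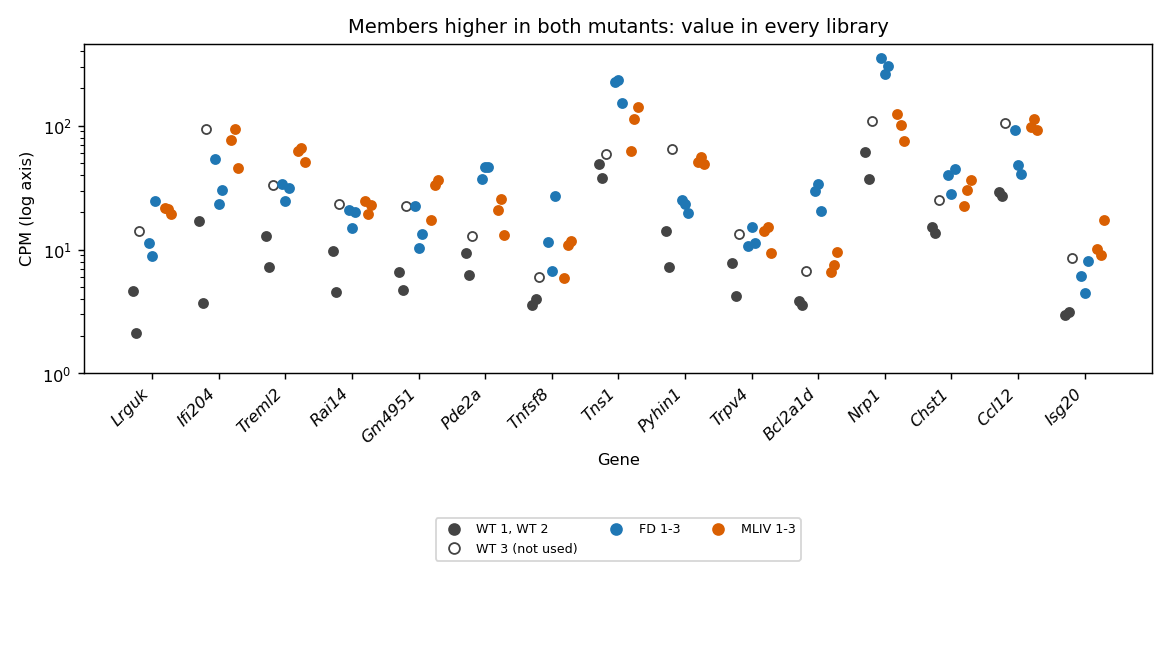
CPM on a log axis (y) in every library for the 15 higher members with the largest smaller change (x), with WT 1 and WT 2 as filled gray points, WT 3 as an open point, FD in blue and MLIV in orange. All blue and orange points lie above both filled gray points, FD is above MLIV for Pde2a, Bcl2a1d and Nrp1, and MLIV is above FD for Treml2 and Pyhin1.

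MLIV against FD itself was no part of the rule, but the rule used the same FD and MLIV values. Shares of members called in this contrast are thus not independent of the choice, and higher and lower members differed in abundance. The contrast was tested with edgeR's quasi-likelihood test over all 17440 genes that passed the filter. Of those genes 982 (5.63%) passed an adjusted p of 0.05, 610 (3.50%) higher and 372 (2.13%) lower in MLIV. Of the 81 higher members 10 passed (12.3%), 5 in each direction. Of the 330 lower members tested 2 passed (0.606%), both higher in MLIV. At an unadjusted p below 0.05 the counts were 21 and 5, beside 3062 over all genes. Gatm had the largest of these differences among higher members, at -2.31 ± 0.14 (log2 fold change ± SE, adjusted p = 4.07e-07), or lower in MLIV than FD in all 9 pairs of libraries. Bcl2a1d followed at -1.83 ± 0.29 (adjusted p = 0.00143), Nrp1 at -1.61 ± 0.23 (adjusted p = 0.00142), Pde2a at -1.13 ± 0.26 (adjusted p = 0.0192) and Ccpg1 at -0.62 ± 0.15 (adjusted p = 0.0217). Those higher in MLIV were Pyhin1 at 1.20 ± 0.23 (adjusted p = 0.00737), Ly9 at 1.01 ± 0.13 (adjusted p = 0.000329) and Treml2 at 1.00 ± 0.22 (adjusted p = 0.0172). Ccl3 at 0.97 ± 0.21 (adjusted p = 0.0122) and Lpl at 0.74 ± 0.20 (adjusted p = 0.0432) completed them. The mutants did not overlap in any of these 10 genes.

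For the other higher members the difference between the mutants did not pass. For Ifi204 it was 1.00 ± 0.63 (adjusted p = 0.467), for Ccl12 0.74 ± 0.26 (adjusted p = 0.154), for Tns1 -0.94 ± 0.29 (adjusted p = 0.113) and for Galc -0.13 ± 0.15 (adjusted p = 0.737). A p above the threshold does not show that the mutants were alike. The calls depended on the libraries used. With WT 3 added as a control, 194 genes passed and 3 members, Gatm, Bcl2a1d and Ccdc162. Without MLIV 1, MLIV 2 or MLIV 3 all genes numbered 372, 369 and 507 and members 7, 6 and 8, and without FD 3 they numbered 1885 and 27. Library totals in place of TMM factors gave 462 genes higher and 811 lower in MLIV and moved the median of all genes from -0.03 to -0.15 on the log2 scale. Gatm and Bcl2a1d passed in all 18 alternatives run. Of the same 18, the Lpl call was lost in 8 (adjusted p up to 0.342), among them the removal of any 1 MLIV library. Those of Ccpg1 (up to 0.15), Pde2a (up to 0.0951) and Treml2 (up to 0.239) were lost in 4 each. Those of Ccl3 (up to 0.288) and Pyhin1 (up to 0.379) were lost in 2 and those of Ly9 (up to 0.293) and Nrp1 (up to 0.0545) in 1. Adding WT 3 lost all 8 of these calls. Besides Lpl, removing MLIV 1 lost Ccpg1, Pde2a and Treml2, removing MLIV 2 lost Ccpg1, Treml2, Ccl3 and Pyhin1, removing MLIV 3 lost Ccpg1 and Pde2a, and removing FD 2 lost Pde2a and Treml2. Lpl was also lost without FD 2 and without WT 1.

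**Figure D3:**
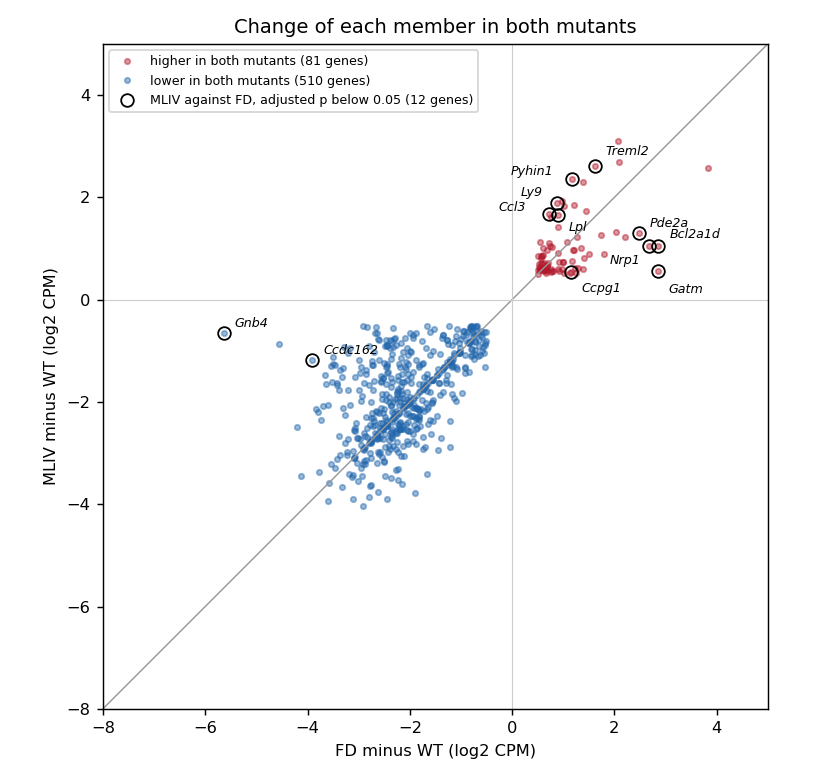
Difference from the controls in FD (x axis) and in MLIV (y axis), both in log2 CPM, for each of the 591 members, with the diagonal where both are equal. Circles mark the 12 members whose difference between the mutants passed an adjusted p of 0.05, among them Gatm, Bcl2a1d, Nrp1 and Pde2a below the diagonal and Ly9, Pyhin1 and Treml2 above it; both axes share the same 2 controls.

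Lower members at well-measured levels were few, 56 with a mean of at least 5 CPM. Stox2, a gene of the storkhead-box family with a winged-helix domain (chromosome 8, 47180048 to 47352348, mm10), had 18.5 and 17.0 CPM in WT, 2.62, 4.47 and 4.14 CPM in FD and 4.20, 3.40 and 1.76 CPM in MLIV. All 6 mutant values were close together and far below the controls, and the difference was -2.26 log2 CPM in FD and -2.57 in MLIV. The mutants did not differ by the test (-0.26 ± 0.44, adjusted p = 0.833). Zfp950, a zinc finger gene, was at 78.0 and 87.0 CPM in WT, 38.1, 33.1 and 38.7 CPM in FD and 34.1, 42.0 and 60.4 CPM in MLIV, where MLIV 3 lay apart from the other 5. Neo1, a receptor of netrins and repulsive guidance molecules, was at 17.4 and 13.6 CPM in WT, 10.8, 8.01 and 3.00 CPM in FD and 7.19, 9.31 and 8.78 CPM in MLIV. Ccdc17 was at 8.21 and 9.19 CPM in WT, 3.07 to 5.0 CPM in FD and 3.14 to 3.49 CPM in MLIV, and its exons overlap C530005A16Rik on the opposite strand. Among these genes only Neo1 had FD 3 far below the other mutants.

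Some lower members differed in depth between the mutants. Gnb4, a G protein beta subunit, was at 18.4 and 19.9 CPM in WT, 0.632, 1.22 and 0 CPM in FD and 8.14, 12.8 and 17.3 CPM in MLIV. Ccdc162 was at 18.3 and 20.9 CPM in WT, 2.12, 1.66 and 0.534 CPM in FD and 7.25, 6.89 and 12.9 CPM in MLIV. In both genes FD was lowest and MLIV lay between FD and the controls, with MLIV 3 nearest to WT. MLIV against FD was 2.65 ± 0.49 for Ccdc162 (adjusted p = 0.00441, up to 0.0502 over the alternatives). For Gnb4 it was 4.35 ± 0.97 (adjusted p = 0.0409), but the call was lost in 9 of 17 alternatives, with adjusted p up to 0.176. Prps1l1, a phosphoribosyl pyrophosphate synthetase gene, had a like order (13.6 and 11.9 CPM in WT, 1.64, 1.39 and 0 CPM in FD, 4.20, 8.46 and 9.47 CPM in MLIV) and did not pass (2.86 ± 1.04, adjusted p = 0.177).

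In the lower members Lrrc28, Hlf and Vangl1 FD 3 stood apart. Lrrc28 was at 14.2 and 16.1 CPM in WT, 4.71, 8.48 and 0 CPM in FD and 5.58, 7.93 and 5.30 CPM in MLIV. Hlf, a transcription factor under the circadian clock, was at 17.7 and 19.8 CPM in WT, 11.1, 13.1 and 0.467 CPM in FD and 11.7, 14.3 and 4.58 CPM in MLIV. Vangl1, a planar cell polarity gene, was at 19.8 and 15.8 CPM in WT, 6.45, 7.25 and 0.868 CPM in FD and 13.8, 7.52 and 7.59 CPM in MLIV. In these genes FD 3 was by far the lowest library. Of further named lower members, Treml1, a TREM-like receptor of platelets, had 11.2 and 10.1 CPM in WT, 1.20 to 5.38 CPM in FD and 3.77 to 7.49 CPM in MLIV. The 1700094D03Rik transcript ran from 12.02 to 12.8 CPM in WT, 0.801 to 10.99 CPM in FD and 5.07 to 7.08 CPM in MLIV, sharing exons with 4933434E20Rik. Ion channel genes were Cacnb1, a calcium channel subunit (10.4 and 11.9 CPM in WT, 2.80 to 7.21 CPM in FD, 3.49 to 8.84 CPM in MLIV), and Unc79, of the NALCN sodium leak channel complex (16.1 and 10.2, 3.87 to 7.65, and 1.13 to 7.54 CPM). Dock5, an exchange factor for the GTPase Rac, was at 10.7 and 8.72 CPM in WT and 3.74 to 7.65 CPM over the mutants, and 4930481A15Rik, which overlaps Drap1, at 15.7 and 15.3 CPM and 5.32 to 13.9 CPM.

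**Figure D4:**
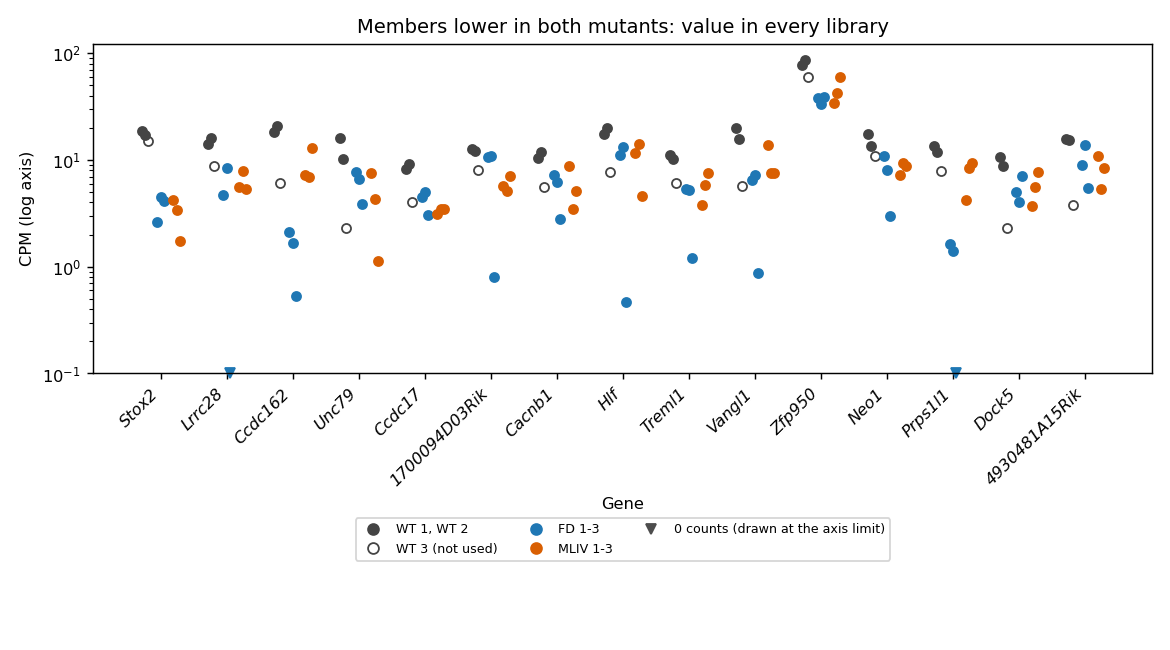
CPM on a log axis (y) in every library for the 15 lower members with the largest smaller change (x), colors as for the higher members, with triangles at the axis limit for 0 counts. Stox2 has 6 mutant points close together below all 3 WT points, while FD 3 is far below the other mutants for 1700094D03Rik, Hlf and Vangl1.

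The 510 lower members held 374 protein-coding genes (73.3%, beside 80.2% of autosomal genes), 78 long noncoding RNAs (15.3%, beside 8.32%) and 27 microRNA genes (5.29%, beside 4.69%) by RefSeq. The 81 higher members held 73 protein-coding genes (90.1%), 2 long noncoding RNAs and no microRNA gene. Over the lower members the median difference was -2.19 log2 CPM in FD and -1.86 in MLIV, where 74 genes had no count in any mutant library. FD 3 was farthest from the controls in 214 and MLIV 1 in 229 of the 510. Markers of other cells were among the low ones. Gria2 and Syt1, a glutamate receptor subunit and a synaptic calcium sensor of neurons, were at 4.07 and 1.502 CPM and at 4.38 and 1.53 CPM in WT 1 and WT 2 and at 0 to 0.881 CPM and 0 to 1.38 CPM in the mutants. The 10 neuron markers summed to 30.5 CPM in WT 1, 8.37 CPM in WT 2, 7.94 to 8.61 CPM in FD and 8.66 to 12.6 CPM in MLIV, and their part was not tested. Foxj1 of ciliated cells was at 0.768 and 0.471 CPM in WT and 0 to 0.463 CPM in the mutants. Vldlr, a lipoprotein receptor, was at 2.84 and 0.530 CPM in WT and 0 to 0.288 CPM in the mutants, and Tgfbr3, a co-receptor of TGF-beta, at 6.49 and 1.71 CPM and 0.173 to 1.66 CPM. In all 5 genes WT 1 was above WT 2.

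At the 0.5 limit, Cetn3 (0.50 in both mutants), Desi1 (0.51 in FD, 0.58 in MLIV) and Srp14 (0.51 and 0.85) lay just inside among higher genes, and Gpr35 (0.52 and 0.50, the smaller at 0.495), Ccdc86 (0.49 and 0.77) and Fmnl2 (0.48 and 0.56) just outside. Among lower genes Dtnb (-0.50 and -0.80) and G2e3 (-0.68 and -0.51) were inside, and Cdan1 (-0.51 and -0.49), Ints8 (-0.48 and -0.51) and Zfp112 (-0.48 and -1.06) outside.

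Of 49 gene lists, which covered lysosomal and microglial genes, general cell functions and markers of 12 cell types, 37 held no member. Members were 2.54% of all autosomal genes, so a short list can hold none at that share. Of 174 autosomal endolysosomal genes in 7 lists 1 was a member, Galc, which was higher. This was 0.575%, beside 0.348% of all autosomal genes for higher members and 2.54% for members in both directions. None was a lower member, beside 2.19% of all autosomal genes. Median differences of lists are over genes that passed the filter on low counts. For the 7 lists together they were -0.09 log2 CPM in FD and 0.30 in MLIV. Over the 16844 autosomal genes that passed they were -0.16 and -0.13. The 34 hydrolase genes had medians of -0.12 and 0.51. Of 30 disease-associated microglia genes 4 were higher members (13.3%), Lpl, Ccl6, Cadm1 and Ccl3, with list medians of 0.02 in FD and 1.47 in MLIV. Of 22 chemokine genes 3 were (13.6%, Ccl3, Ccl6 and Ccl12, medians 0.15 and 0.84). Of 38 type I interferon-stimulated genes 2 were (5.26%, Isg20 and Herc6, medians 0.13 and 2.11). The share over all autosomal genes was 0.348%. The FD medians of these lists stayed near 0 while single genes in them were higher in both mutants. Of 77 cytosolic ribosomal protein genes none was a member, with medians of -0.06 and 1.31. No homeostatic microglia gene of 25 was one either, with medians of 0.03 and -0.04. An absence in lists of this size says little beside a share of 2.54% over all autosomal genes. In the mean of both mutants against WT, edgeR called 43 genes (0.247%), 34 higher (0.195%) and 9 lower (0.0516%), of which 12 and 4 were members. The rule used this contrast, so nothing can be read from the calls of members in it. With library totals the split was 9 higher and 10 lower. Leaving out MLIV 2 gave 9 genes, WT 1 11, MLIV 3 15, MLIV 1 19, WT 2 24 and FD 3 410.

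The library labelled WT 3 had no part in the choice, and its Mcoln1 count goes against its label. Members were chosen with WT 1 and WT 2 apart from the mutants. A library left out can therefore fall toward the mutants whatever its genotype, and the counts below say nothing about that genotype. WT 3 lay above both other WT libraries in 73 of the 81 higher members and nearer to the mutant mean in 61. It fell within the range of the 6 mutants in 57, beyond all of them in 6 and on the control side of all in 18. Among the 16433 other autosomal genes that passed the filter WT 3 lay within the mutant range in 85.3%. Chemokine and PYHIN genes were on the mutant side, with Ccl12 at 105 CPM, Ccl3 at 87.3 CPM, Ifi204 at 93.6 CPM and Pyhin1 at 64.6 CPM. Ly9 at 157 CPM exceeded every mutant library. On the control side were Gatm at 99.9 CPM, Tns1 at 59.7 CPM, Pde2a at 12.95 CPM, Tnf at 10.3 CPM and Hist3h2a at 13.7 CPM. Of the 510 lower members WT 3 lay below both other WT libraries in 456 and nearer to the mutant mean in 350. It was within the mutant range in 336, beyond in 6 and on the control side in 168. The last held Stox2 at 15.03 CPM, Neo1 at 10.9 CPM and Lrrc28 at 8.87 CPM. With WT 3 as a control in 9 libraries, 17 genes were higher and 109 lower, of which 14 and 108 were members. The 14 were Pde2a, Tns1, Tnf and Hist3h2a with Acadl, Acsl1, Hpgd, Cbr3, Tmem8c, Ccdc34, Zc3h10, Ildr2, Plxdc1 and Snord99. Acsl1 and Acadl, which activate and oxidize fatty acids, and Hpgd, which breaks down prostaglandins, were named after their values were seen. Hpgd was at 172 and 185 CPM in WT 1 and WT 2, 203 CPM in WT 3, 260 to 308 CPM in FD and 232 to 331 CPM in MLIV, and Acsl1 at 25.4, 27.0 and 27.3 CPM, 44.8 to 69.8 CPM and 35.8 to 52.4 CPM. Both mutants overlapped in these 2 genes and all 3 WT libraries lay below them.

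**Figure D5:**
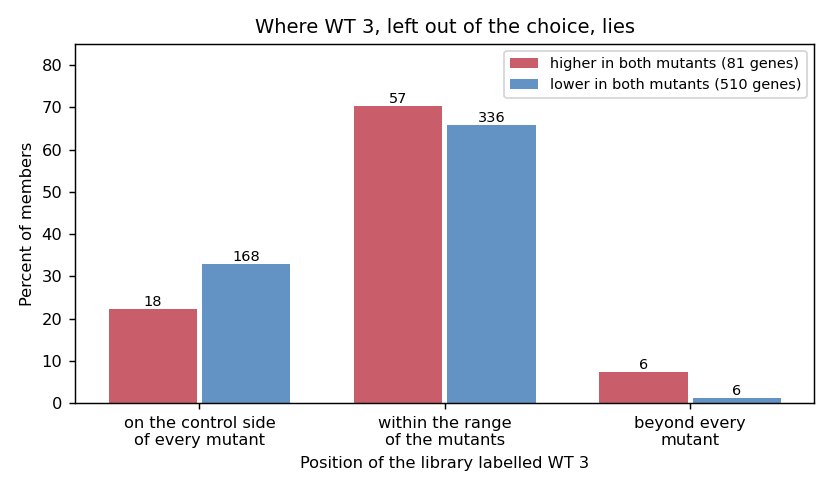
Share of members (y axis, percent) by where the library labelled WT 3 lies (x axis), for higher and lower members, with the number of genes above each bar. For 57 of 81 higher and 336 of 510 lower members WT 3 falls within the range of the mutants, and for 18 and 168 it stays on the control side of all 6.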

How the data were processed

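The authors sorted microglia, prepared libraries with a stranded total RNA kit for low input, aligned reads to mm10 with STAR 2.5.1 and counted them with featureCounts 1.4.6-p3. The deposited counts are whole reads per gene, not normalized, and per the file header 1 command covered 21 libraries, with no option for strand or read pairs, so antisense partners cannot be separated. The deposited exon length of each gene and the authors' comparison tables (DESeq2 fold changes and p-values) were not used.

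CPM were computed with edgeR 4.0.16 (R 4.3.3) on TMM factors over 8 libraries, and log2 CPM with a prior count of 2. MLIV against FD and both mutants against WT were tested by edgeR's robust quasi-likelihood model, 1 mean per group, on genes kept by filterByExpr, with Benjamini-Hochberg adjustment at 0.05. SE is the fold change divided by the root of the F statistic. DESeq2 1.42.0, other scalings, filters, prior counts, size limits, the replicate number as a block and removal of each library were alternatives. The tests were checked on simulated data. Members and gene lists were chosen with earlier results of these data known. Named genes were the 15 highest and 15 lowest members of at least 5 CPM by the smaller change, up to 4 members per list, up to 5 in each direction in MLIV against FD, 3 genes on each side of the 0.5 limit, Mcoln1 and Gla. Some genes that this rule names are not reported here. Symbols of 1104 list entries matched except 15. No library was a duplicate of another. Promoters are from RefSeq (GRCm38.p6), matched by symbol, the first entry per gene.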

Additional observations from a re-analysis of the deposited data

Results flagged for a closer look

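The 12 members that differed between MLIV and FD by the direct test stand out because both mutants move away from the controls on the same side but by unequal amounts. On the log2 scale MLIV minus FD was -2.31 for Gatm, -1.83 for Bcl2a1d, -1.61 for Nrp1, -1.13 for Pde2a and -0.62 for Ccpg1. It was 1.20 for Pyhin1, 1.01 for Ly9, 1.00 for Treml2, 0.97 for Ccl3 and 0.74 for Lpl. Among lower members it was 2.65 for Ccdc162 and 4.35 for Gnb4.

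The library labelled WT 3, left out of the choice of members and of the main tests, lay above both other WT libraries in 73 of the 81 higher members. Members were chosen with those WT libraries apart from the mutants, so this count says nothing about the genotype of WT 3. The Mcoln1 count of 2 in WT 3 goes against its label.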

How the results depend on the processing

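Members numbered 653 to 8895 without 1 library, 96 to 292 higher and 522 to 8603 lower, each extreme high coming from WT 1 as the sole control. The rule is easier to meet with fewer libraries, and 505 to 584 of the 591 members were kept in these removals. With WT 3 as a control there were 126 (17 higher, 109 lower), and with FD 3 also removed, a choice made after seeing the data, 151 (25 and 126). Library totals gave 38 higher members, a size limit of 1 gave 18, and the filter alone left 330 lower ones. At least 10 counts in every library left 163, 84 of them lower. Without WT 1 and FD 3, also chosen later, there were 1536, 809 of them higher.

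MLIV against FD gave 369 to 1885 genes and 6 to 27 members without 1 library, 194 and 3 with WT 3, 1793 and 20 without a filter, 2193 and 30 without WT 1 and FD 3, 1809 genes by DESeq2 and 440 with a log2 fold change above 1. Both mutants against WT gave 9 to 410 genes without 1 library, 19 with library totals, 12 with WT 3, 241 without a filter, 8 with at least 10 counts everywhere, 175 without WT 1 and FD 3, 194 by DESeq2 and 28 above a log2 fold change of 1. Where a setting removes samples or genes, that is its own effect; otherwise the cause was not tested. With the replicate block MLIV against FD gave 1381 genes and 13 members and both mutants against WT 49 genes. Same-numbered FD and MLIV libraries did not deviate together, with correlations of 0.0145, -0.0615 and -0.0768. Between same-numbered WT and mutant libraries they were -0.202 and -0.542 for FD and -0.163 and 0.116 for MLIV. With so few libraries these values cannot exclude a shared preparation. No named member changed direction under any setting run; the mean change of a named member moved by more than the spread between replicates in 79 cases, and a call between the mutants was lost in 36. Levels under about 1 CPM, where 357 of the 510 lower members lie, rest on few reads, and FD 3 and WT 1 differ most in genes detected.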
